A study of Homo sapiens with 6 samples.

Results

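Potassium channel genes were followed in the human melanoma cell line A-375, in 3 libraries that carry a control guide (sgCTRL) and 3 that carry a guide against SEPHS2 (sgSEPHS2), a selenophosphate synthetase needed to make selenoproteins. Members were chosen by symbol and by reads: every gene whose symbol begins with KCN, other than antisense and intronic transcripts, with at least 30 reads summed over the 6 libraries. This took 60 of the 74 such symbols, out of 21631 symbols in the table, and 59 of the 60 encode proteins. KCNQ1OT1, a noncoding RNA that passes the same rule, encodes no channel. It is described apart from the classes but stays in the counts and medians over all members. The series describes the second group as SEPHS2 knockout cells, the labels name no clones or separate lines for either group, and no agent other than the guides is named. Whether the cells that founded each group already differed and what the guide did cannot be told apart. The read total that chose the members adds both groups. KCNJ8 was singled out for its reads when the members were chosen, so its values are described without a test and it is left out of every count of calls.

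Potassium channels let potassium leave or enter the cell along its gradient, set the resting membrane potential and shape how a cell repolarizes after it has been depolarized. Voltage-gated channels open on depolarization, inward rectifiers pass current near the resting potential, two-pore channels carry background leak, and calcium-activated channels open when calcium rises in the cell. Melanoma cells are not excitable in the way neurons are, but potassium channels are known to affect their volume, calcium entry, proliferation and migration.

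Depth was 34606145 to 43405579 counted reads per library. SEPHS2 itself was not lower in the libraries labelled sgSEPHS2, at 156 ± 3.32 CPM in control and 173 ± 3.85 CPM in the other group (SD, n = 3 per group, log2 fold change 0.15, SE 0.04, edgeR adjusted p = 0.00401). CPM are reads scaled to library size with TMM factors. A small insertion or deletion can leave an mRNA in place, so this count checks no label, and every direction below rests on the labels. Of the melanocyte lineage markers, SOX10 was high (619 ± 15.6 and 569 ± 13 CPM), and MITF and S100B were present. PMEL and MLANA stood near 1 CPM, and TYR and DCT had 10 and 15 reads in all. SOX10 and MITF were both called lower in the libraries labelled sgSEPHS2 (log2 fold change -0.12 and -0.35, edgeR adjusted p = 0.0164 and 1.24e-04). The leukocyte markers found in the table summed to at most 0.351 CPM in any library.

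KCNJ8 (chromosome 12, 21764955 to 21774706, GRCh38.p14) encodes a pore subunit of ATP-sensitive potassium channels. Control libraries held 186, 210 and 175 KCNJ8 reads, and each of the 3 libraries labelled sgSEPHS2 held 0. The groups did not overlap. Control libraries stood at 4.63 ± 0.397 CPM. With 3 reads over the whole sgSEPHS2 group as the limit that a count of 0 allows, KCNJ8 was at least 182-fold lower there, and that bound covers counting error only. ABCC9, the regulatory sulfonylurea receptor that pairs with the KCNJ8 pore, is its neighbour on chromosome 12, with 22.7 kb between the gene ends. It had 18, 11 and 12 reads in control and 0 in every library labelled sgSEPHS2, at least 13-fold lower by the same limit. ABCC9 passed the expression filter through its control reads alone, so its test adds nothing to these counts. The next genes with at least 1 CPM on either side did not share this pattern. LDHB, on the left at a distance of 107 kb, had 18.6 and 18.4 CPM, and CMAS, on the right at 272 kb, had 72.5 and 61.3 CPM (log2 fold change -0.24). Beyond CMAS, at 419 kb, ST8SIA1 had 9.42 CPM in control and 0.577 CPM in the others (log2 fold change -4.08, edgeR adjusted p = 2.05e-12). The paralog KCNJ11, the other pore subunit of this channel type, and its receptor ABCC8 were both too low to be tested. KCNJ11 had 8, 16 and 3 reads in control and 4, 4 and 6 in the other group, which overlap. ABCC8 had 18, 8 and 12 against 2, 3 and 6, a ratio of 3.3 (95% exact conditional binomial interval 1.65 to 7.15, counting error only).

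The start regions of KCNJ8 and ABCC9 are printed because both mRNAs were read at 0 in the libraries labelled sgSEPHS2, and that of KCNN4 because it was the most abundant member per exon length and was higher there. Each runs 5′ to 3′ on the gene's own strand, from 250 bases before to 50 bases after the RefSeq start, on GRCh38.p14. They lie at chr12:21774657-21774956, chr12:21941377-21941676 and chr19:43780924-43781223, all on the minus strand. Capitals mark matches on either strand to TATAAA (the core of a TATA box), TGANTCA (the AP-1 element, with any base in the middle), TGACGTCA (the cyclic AMP response element), GGGCGG (the GC box) or CACGTG (the E-box).
KCNJ8: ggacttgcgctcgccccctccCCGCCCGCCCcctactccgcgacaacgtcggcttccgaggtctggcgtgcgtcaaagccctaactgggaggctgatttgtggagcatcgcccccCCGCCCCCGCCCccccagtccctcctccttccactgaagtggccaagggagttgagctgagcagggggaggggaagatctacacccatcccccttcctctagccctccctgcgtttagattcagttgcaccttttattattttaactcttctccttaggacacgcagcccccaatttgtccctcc
ABCC9: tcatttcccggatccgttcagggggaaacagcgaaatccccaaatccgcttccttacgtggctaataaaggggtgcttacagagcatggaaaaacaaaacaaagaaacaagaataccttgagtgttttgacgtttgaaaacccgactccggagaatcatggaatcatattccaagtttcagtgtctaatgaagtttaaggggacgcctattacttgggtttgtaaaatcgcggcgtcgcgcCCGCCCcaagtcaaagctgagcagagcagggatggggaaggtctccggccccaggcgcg
KCNN4: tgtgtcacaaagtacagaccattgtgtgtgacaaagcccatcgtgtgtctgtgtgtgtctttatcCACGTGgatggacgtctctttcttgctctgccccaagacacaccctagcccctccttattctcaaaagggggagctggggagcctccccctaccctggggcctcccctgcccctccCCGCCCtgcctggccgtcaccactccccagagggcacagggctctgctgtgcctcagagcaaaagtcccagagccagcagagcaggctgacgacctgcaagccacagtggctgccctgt
The KCNJ8 window held 4 GGGCGG matches and 16 CG dinucleotides, and the ABCC9 window 1 GGGCGG match and 18 CG dinucleotides. The KCNN4 window held 1 CACGTG match, 1 GGGCGG match and 6 CG dinucleotides. RefSeq windows were found for 46 of the 60 members, 75 windows in all. GGGCGG was in 50.7% of the member windows and in 45% of all 35116 windows, CACGTG in 9.33% and 7.26%, TGANTCA in 10.7% and 7.71%, and TATAAA in 9.33% and 11.5%. TGACGTCA was in none of the member windows and in 1.85% of all. These matches are letters in a window and not evidence of binding.

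Of the 59 members other than KCNJ8, KCNQ1OT1 included, 51 passed the expression filter. At an edgeR adjusted p under 0.05, 20 of the 51 were called, 5 higher and 15 lower in the libraries labelled sgSEPHS2. That is 39.2%, against 45.4% of all 16910 genes tested, 22% of them higher and 23.4% lower, so the share called in either direction is near the background. By direction the members were less even than all genes, with 15 of the 20 calls lower. Members at least 2-fold lower numbered 7, and 1 was at least 2-fold higher. Over all genes tested 5.67% were called at least 2-fold lower and 1.25% at least 2-fold higher. The groups did not overlap for 7 members that were higher and 16 that were lower, where 26.5% and 25.6% of all tested genes did so, 52.1% in either direction. Of the called members only KCNJ4 had overlapping groups. The median log2 fold change of the 51 was -0.11, against 0.0051 over all genes tested. It was -0.18 without control replicate 1, -0.19 without sgSEPHS2 replicate 3, and -0.031 with a trend in exon length and GC content removed, a setting in which the median of all genes was 0.082. In that setting 9 members were called higher and 13 lower, where 48.8% of all genes tested were called in either direction.

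**Figure D1:**
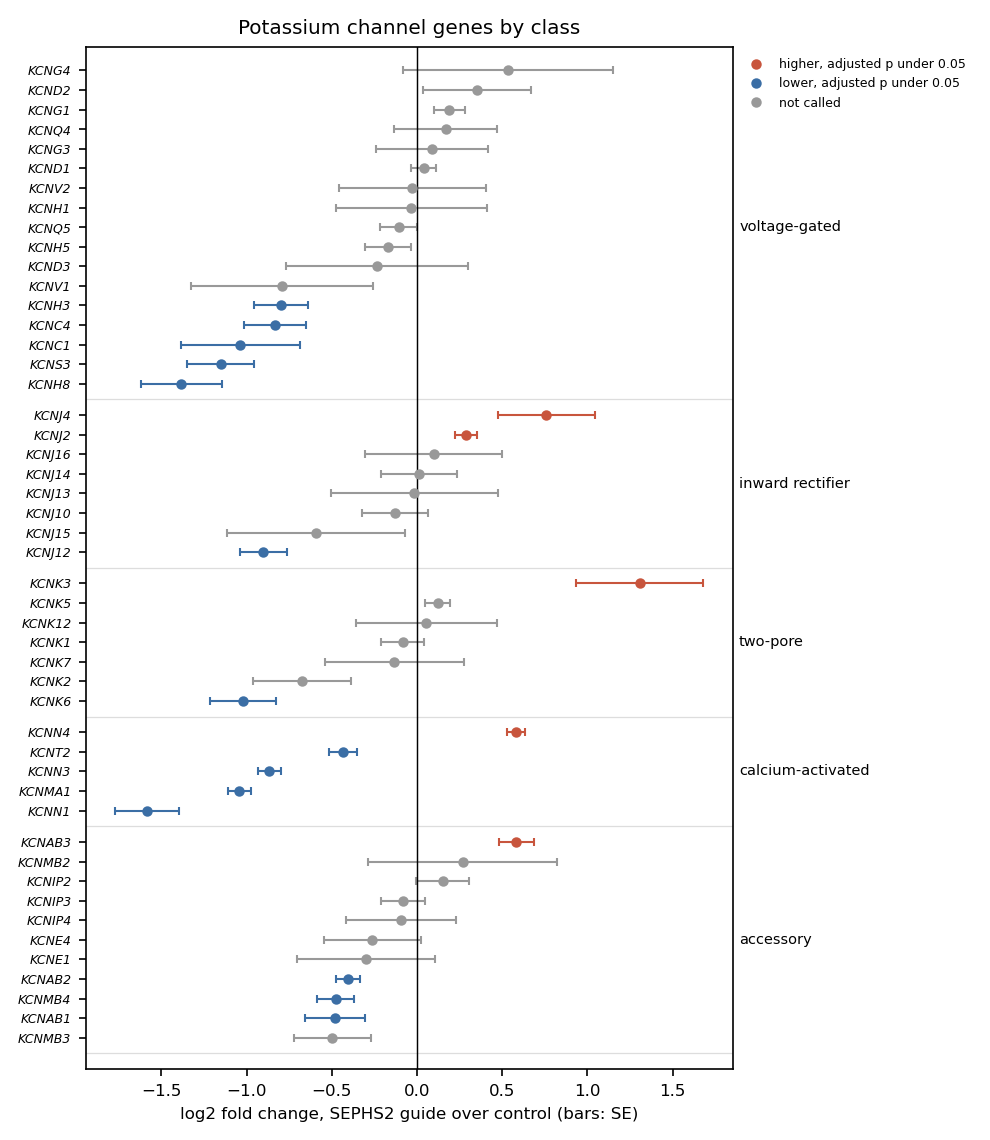
Log2 fold change (x axis, libraries labelled sgSEPHS2 over control, bars are SE) of tested protein-coding members other than KCNJ8, by class on the y axis, 3 libraries per group. Red points were called higher, blue points lower and grey points were not called, and the calcium-activated class has no grey point.

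By level, the calls fell mostly on members above 1 CPM. The share called over all genes also rose with level, 23.3% below 1 CPM, 37.5% from 1 to 10 CPM and 55% at 10 CPM or more. Of 20 tested members below a mean of 1 CPM, 1 was called lower and 1 higher, where 18.9% and 4.43% of all genes at that level were. Of 22 members from 1 to 10 CPM, 10 were lower and 2 higher, where 23% of all genes at that level were lower and 14.5% higher. Of 9 members at 10 CPM or more, 4 were lower and 2 higher, where 24.8% and 30.2% of all genes at that level were. These shares are descriptions of a list chosen with earlier results known.

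Calcium-activated channels held the largest summed level of any class, and each of the 5 tested members was called, 1 higher and 4 lower. The median level of these 5 was 17 CPM. Of all genes tested 45.4% were called, and of those at 10 CPM or more 55%. The class sum was 119, 125 and 125 CPM in control and 114, 114 and 111 CPM in the libraries labelled sgSEPHS2. KCNN4 (chromosome 19, 43766533 to 43780973), the intermediate-conductance channel known from lymphocytes and many dividing cells, had 46.1, 48.1 and 47.8 CPM in control and 74.4, 72.9 and 64.8 CPM in the other group. Every library labelled sgSEPHS2 lay above every control library. It rose 1.49-fold (log2 fold change 0.58, SE 0.05, edgeR adjusted p = 1.41e-08). The small-conductance channels of the same family went the other way. KCNN3 had 30.9, 31.3 and 32.2 CPM in control and 16.6, 16 and 19.2 CPM in the libraries labelled sgSEPHS2, without overlap, and fell 1.82-fold (log2 fold change -0.87, SE 0.07, edgeR adjusted p = 8.56e-10). KCNN1 had 3.7, 4.82 and 3.93 CPM against 1.08, 1.76 and 1.26 CPM, and fell 3-fold (log2 fold change -1.58, SE 0.19, edgeR adjusted p = 5.21e-07).

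KCNMA1 (chromosome 10, 76869602 to 77637808), the pore of the large-conductance channel opened by both calcium and voltage, had 22.4, 23.5 and 22.7 CPM in control. The libraries labelled sgSEPHS2 had 11.1, 11 and 11.2 CPM, all below every control library. It fell 2.06-fold (log2 fold change -1.04, SE 0.07, edgeR adjusted p = 4.39e-11), the smallest adjusted p of any tested member. Its exons overlap those of KCNMA1-AS1 on the opposite strand by 419 bases of 35644, and KCNMA1-AS1 had 37 reads in all. KCNT2, a sodium-activated channel of the same wider family and grouped here by symbol, was lower, with 17 ± 0.768 against 12.6 ± 1.5 CPM (log2 fold change -0.44, edgeR adjusted p = 1.84e-04). KCNT1, its paralog, had 30 reads in all and was not tested. KCNN4 was 1.49, 1.54 and 1.48 times the level of KCNN3 in the control libraries and 4.48, 4.55 and 3.38 times in the others. Against KCNMA1 it was 2.06, 2.05 and 2.1 times in control and 6.69, 6.63 and 5.8 times in the others. Per kilobase of exon the order in control was KCNT2 (2.4 CPM per kb) and KCNN3 (2.32) well below KCNN4 (13.9), then KCNN1 (1.04) and KCNMA1 (0.641), whose annotated exons are long. In the libraries labelled sgSEPHS2 these levels were 20.8 for KCNN4, 1.77 for KCNT2, 1.27 for KCNN3, 0.344 for KCNN1 and 0.312 for KCNMA1.

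**Figure D2:**
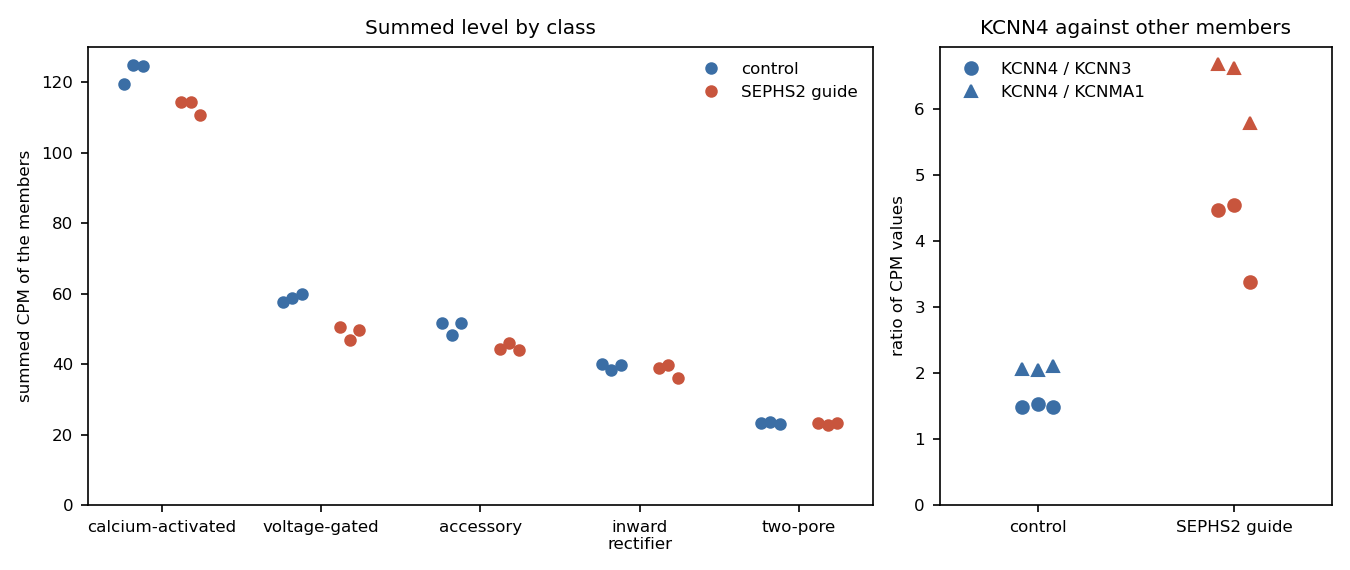
Left, summed CPM of the protein-coding members of each class (y axis), KCNJ8 included, in each control library (blue) and each library labelled sgSEPHS2 (red). The calcium-activated, voltage-gated and accessory sums do not overlap between groups, and the inward rectifier and two-pore sums do. The inward rectifier sums overlap only because KCNJ8 is included. Right, the ratio of KCNN4 to KCNN3 (circles) and to KCNMA1 (triangles) in each library, from 1.48 to 2.1 in control and from 3.38 to 6.69 in the others.

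Voltage-gated channels formed the largest class by number. Of 22 members 19 were tested, and 6 fell and none rose. That is 31.6% called, below the 45.4% of all genes tested, of which 23.4% were lower and 22% higher. KCNC4, a rapidly inactivating channel, had 2.87, 2.35 and 2.63 CPM in control and 1.49, 1.63 and 1.28 CPM in the libraries labelled sgSEPHS2, without overlap (log2 fold change -0.83, edgeR adjusted p = 8.05e-04). KCNC1, a fast delayed rectifier that allows rapid firing in neurons, had 47, 46 and 37 reads against 17, 13 and 30, also without overlap (log2 fold change -1.04, edgeR adjusted p = 0.0189). The KCNC1 call was lost without control replicate 1 (adjusted p = 0.0519), control replicate 2 (adjusted p = 0.057) or sgSEPHS2 replicate 2 (adjusted p = 0.0888), and with the length and GC trend removed (adjusted p = 0.0693). Members of the ether-a-go-go (KCNH) family differed among themselves. KCNH8 had 1.99, 1.74 and 2 CPM in control and 0.703, 0.58 and 0.913 CPM in the other group, and fell 2.61-fold (log2 fold change -1.38, SE 0.24, edgeR adjusted p = 6.69e-05). KCNH3, of the same subfamily, had 3.56, 3.83 and 3.31 CPM against 2.2, 2.14 and 1.83 CPM (log2 fold change -0.80, edgeR adjusted p = 2.75e-04). KCNH5 had overlapping groups at 4.37 ± 0.198 and 3.88 ± 0.453 CPM (log2 fold change -0.17, edgeR adjusted p = 0.321). KCNH2, which encodes the channel of cardiac repolarization that many drugs block, was too low for the expression filter. It had 6, 14 and 20 reads in control and 0 in every library labelled sgSEPHS2, at least 12.7-fold lower against 3 reads over the group. With no filter on low counts it was called (edgeR adjusted p = 2.00e-04). It was named because its groups do not overlap, so that call is no separate support.

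KCNS3, a silent subunit that modifies other voltage-gated channels, had 2.28, 3.32 and 3.23 CPM in control and 1.14, 1.35 and 1.46 CPM in the libraries labelled sgSEPHS2 (log2 fold change -1.15, SE 0.20, edgeR adjusted p = 5.47e-05). The groups did not overlap. The 2 most abundant members of the class were not called. KCND1, an A-type channel and the highest of the class per kilobase of exon (2.63 and 2.71 CPM per kb), had 15.3 ± 0.133 and 15.7 ± 1.32 CPM (log2 fold change 0.040, edgeR adjusted p = 0.696), and was called higher with the length and GC trend removed (0.18, adjusted p = 0.0412). KCNG1, another silent subunit, had 8.84 ± 0.182 and 10.1 ± 0.763 CPM (log2 fold change 0.19, edgeR adjusted p = 0.0988), and was called higher without sgSEPHS2 replicate 3 (0.25, adjusted p = 0.0363) and with the length and GC trend removed (0.29, adjusted p = 0.00922). KCNQ5, which carries a slow current that damps firing, had 7.98 ± 0.766 and 7.41 ± 0.826 CPM (edgeR adjusted p = 0.462). The class sum went from 57.6, 58.9 and 59.8 CPM to 50.6, 46.9 and 49.7 CPM.

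Of the 10 inward rectifier members other than KCNJ8, 8 were tested, 2 rose and 1 fell, 37.5% called against 45.4% of all genes. KCNJ2, a strong rectifier that holds the resting potential in heart and muscle, had the highest level of the class. It stood at 24.8, 23.2 and 25 CPM in control and 31.3, 30.8 and 27.2 CPM in the libraries labelled sgSEPHS2, without overlap. It rose 1.22-fold (log2 fold change 0.29, SE 0.06, edgeR adjusted p = 7.51e-04). KCNJ12, a close relative of KCNJ2, had 5.31, 4.48 and 5.21 CPM against 2.72, 2.76 and 2.54 CPM and fell 1.87-fold (log2 fold change -0.90, SE 0.14, edgeR adjusted p = 1.55e-05). KCNJ18 is a nearly identical copy of KCNJ12, so reads of the pair can be split between them and both are uncertain. KCNJ18 had 6, 0 and 2 reads in control and 0 in the others. KCNJ4 had 51, 30 and 24 reads in control and 37, 70 and 64 in the other group. These groups overlap, with the lowest library labelled sgSEPHS2 below the highest control (log2 fold change 0.76, SE 0.28, edgeR adjusted p = 0.033). The KCNJ4 call was lost without control replicate 2 (adjusted p = 0.108), control replicate 3 (0.146), sgSEPHS2 replicate 2 (0.129) or sgSEPHS2 replicate 3 (0.0986), and with DESeq2 (0.0535). KCNJ10, best known from glia, had 1.99 ± 0.212 and 1.81 ± 0.293 CPM, and KCNJ14 had 1.32 ± 0.0776 and 1.33 ± 0.218 CPM (edgeR adjusted p = 0.622 and 0.972). The class sum, KCNJ8 included, was 40.1, 38.3 and 39.8 CPM in control and 38.8, 39.6 and 36 CPM in the others. KCNJ8 gave 4.41, 5.09 and 4.38 CPM of the control sums and 0 of the others. Without KCNJ8 the sum was higher in every library labelled sgSEPHS2 than in every control library.

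**Figure D3:**
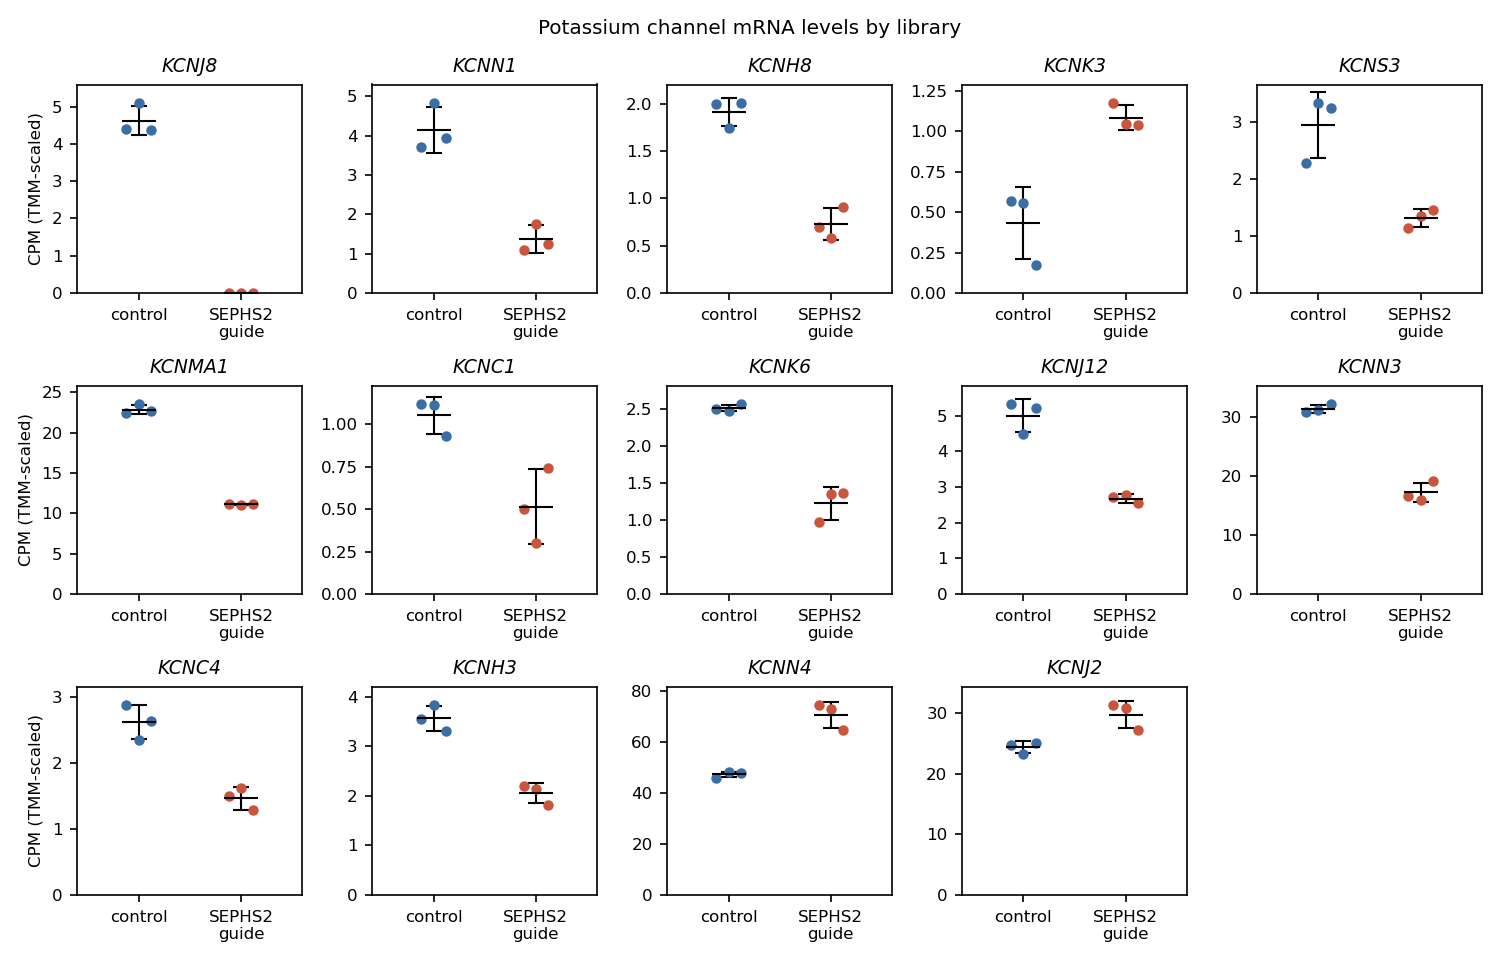
CPM (y axis, linear from 0, a separate scale in each panel) of KCNJ8, 11 called members with large absolute log2 fold changes, and KCNN4 and KCNJ2, in each control library (blue) and each library labelled sgSEPHS2 (red); black lines are mean ± SD, n = 3. The groups do not overlap in any of the 14 panels, and the red points are above the blue ones only for KCNK3, KCNN4 and KCNJ2.

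Two-pore channels had the steadiest sum, 23.3, 23.4 and 23.1 CPM in control and 23.3, 22.6 and 23.2 CPM in the libraries labelled sgSEPHS2. Of 8 members 7 were tested, 1 rose and 1 fell, 28.6% called against 45.4% of all genes. KCNK5, an alkaline-activated leak channel that made up most of the sum, had 13.5 ± 0.144 and 14.7 ± 0.68 CPM (log2 fold change 0.12, edgeR adjusted p = 0.195), and was called higher with the length and GC trend removed (0.22, adjusted p = 0.0195). KCNK1 had 4.67 ± 0.24 and 4.4 ± 0.356 CPM (edgeR adjusted p = 0.624). KCNK6 had 2.49, 2.47 and 2.56 CPM in control and 0.966, 1.35 and 1.36 CPM in the other group, without overlap, and fell 2.03-fold (log2 fold change -1.02, SE 0.19, edgeR adjusted p = 1.80e-04). KCNK3, an acid-sensitive leak channel, was low, with 24, 23 and 7 reads in control and 40, 45 and 42 in the libraries labelled sgSEPHS2. Its groups did not overlap, and it rose 2.47-fold (log2 fold change 1.31, SE 0.37, edgeR adjusted p = 0.00676), the largest rise of any tested member. Its log2 fold change was 0.93 to 1.54 with 1 library left out. KCNK2, a leak channel gated by stretch and lipids, had 1.16 ± 0.252 and 0.727 ± 0.0881 CPM (log2 fold change -0.68, edgeR adjusted p = 0.0603), and was called lower without control replicate 1 (adjusted p = 0.0341) and with the length and GC trend removed (adjusted p = 0.0351).

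Accessory subunits do not form pores but change the gating or traffic of the channels they join. Of 12 members 11 were tested, 1 rose and 3 fell, 36.4% called against 45.4% of all genes. The 3 cytoplasmic beta subunits of voltage-gated channels split. KCNAB2 had 19.3, 19.1 and 19.5 CPM in control and 13.5, 15.7 and 14.5 CPM in the libraries labelled sgSEPHS2, and fell 1.32-fold (log2 fold change -0.40, SE 0.07, edgeR adjusted p = 6.68e-05). That call was lost with the length and GC trend removed (log2 fold change -0.16, adjusted p = 0.0729). KCNAB1 had 2.68 ± 0.201 and 1.93 ± 0.335 CPM (log2 fold change -0.48, edgeR adjusted p = 0.0306). Its call was lost without control replicate 1 (adjusted p = 0.0675), control replicate 2 (0.102), sgSEPHS2 replicate 2 (0.0892) or sgSEPHS2 replicate 3 (0.13), with DESeq2 (0.0582) and with the length and GC trend removed (0.0588). KCNAB3 had 5.88, 5.74 and 6.69 CPM against 9.08, 9.52 and 8.81 CPM, without overlap, and rose 1.5-fold (log2 fold change 0.58, SE 0.10, edgeR adjusted p = 8.19e-05).

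KCNMB4, a beta subunit of the large-conductance channel, fell with its pore gene KCNMA1. It had 9.47, 7.87 and 8.79 CPM in control and 5.95, 5.92 and 6.91 CPM in the other group (log2 fold change -0.48, SE 0.11, edgeR adjusted p = 0.00111). KCNMB3, another beta subunit, had 2.13 ± 0.474 and 1.52 ± 0.426 CPM (log2 fold change -0.50, edgeR adjusted p = 0.0777), and was called lower without control replicate 2 (adjusted p = 0.0303) or sgSEPHS2 replicate 1 (0.0174). Its exons overlap those of PIK3CA on the opposite strand by 3403 of 8979 bases, and PIK3CA itself was lower (log2 fold change -0.29), so KCNMB3 is uncertain here, where the strand setting is not known. KCNE1 (0.485 ± 0.142 and 0.398 ± 0.0981 CPM, edgeR adjusted p = 0.591) has a near-identical copy and is uncertain too. The calcium sensors KCNIP3 and KCNIP2, partners of A-type channels, had 6.02 ± 0.409 and 5.7 ± 0.935 CPM, and 2.87 ± 0.333 and 3.18 ± 0.379 CPM (edgeR adjusted p = 0.64 and 0.47). KCNE4, a single-pass subunit, had 1.12 ± 0.195 and 0.922 ± 0.299 CPM (edgeR adjusted p = 0.487). KCNQ1OT1, the noncoding RNA, had 34.5 ± 4.66 and 35.5 ± 4.42 CPM (log2 fold change 0.046, edgeR adjusted p = 0.699).

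Besides KCNH2, KCNJ11 and KCNT1, the members left out by the expression filter were KCNRG, KCNS1, KCNH4, KCNK13 and KCNJ5, with 46, 54, 33, 31 and 30 reads in all, and each had overlapping groups. KCNRG shares 1086 of its 1625 exon bases with TRIM13 on the same strand. At the threshold of 30 reads, KCNJ5 and KCNT1 stood just inside with 30 each, and KCNE3 and KCNE5 just outside with 28 and 26. The 14 symbols below the threshold had 8 to 28 reads. Most of the tested members that are not named above were below a mean of 1 CPM and were not called.

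Of 49 related genes of potassium transport listed beside the channels, 36 were in the table and 32 were tested. Of these 5 rose and 14 fell, ABCC9 among the 14. That is 59.4% against 45.4% of all genes tested, with a median log2 fold change of -0.040 against 0.0051. ABCC9 passed the expression filter through its control reads alone, so its call is no support for that share. With the length and GC trend removed 26 were called, and the 7 gained were all higher. In that setting 48.8% of all 16108 genes tested were called, and the median log2 fold change of all genes was 0.082. The sodium pump, which builds the gradient that the channels use, was called in several parts but not in all. ATP1B2, a beta subunit, had 4.98 ± 0.65 CPM in control and 0.488 ± 0.0693 CPM in the libraries labelled sgSEPHS2 (log2 fold change -3.33, SE 0.20, edgeR adjusted p = 1.51e-11). The other beta subunit called, ATP1B3, is far more abundant, and had 197 ± 4.4 and 223 ± 9.53 CPM (log2 fold change 0.18, edgeR adjusted p = 0.00126). ATP1B1, a beta subunit that was not called, had 90 ± 1.39 and 90.7 ± 1.56 CPM (edgeR adjusted p = 0.869). Pump modulators FXYD3 and FXYD7 fell, by log2 fold changes of -0.66 and -1.49 (edgeR adjusted p = 1.12e-07 and 1.30e-05). FXYD5, more abundant than both, had 70.9 ± 1.4 and 72.3 ± 2.8 CPM and was not called (edgeR adjusted p = 0.664). It was called higher with the length and GC trend removed (adjusted p = 0.0484).

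AMIGO1, an adhesion protein that joins voltage-gated potassium channels, had 15.4 ± 0.452 CPM in control and 9.22 ± 0.269 CPM in the other group (log2 fold change -0.74, edgeR adjusted p = 1.11e-07). WNK2, a kinase that regulates cation chloride cotransport, dropped to 0.428 ± 0.0505 CPM from 1.96 ± 0.16 in control (log2 fold change -2.19, edgeR adjusted p = 4.76e-07). NEDD4L, a ubiquitin ligase that removes several channels from the membrane, had 91.7 ± 1.34 CPM in control and was higher, at 119 ± 5.36 CPM, in the others (log2 fold change 0.37, edgeR adjusted p = 5.98e-07). SGK1, a kinase that restrains that ligase, went down, 197 ± 2.61 against 162 ± 3.86 CPM (log2 fold change -0.28, edgeR adjusted p = 7.09e-06). TMEM38B, a cation channel of the endoplasmic reticulum, went up, 38.7 ± 1.44 against 49.2 ± 1.89 CPM (log2 fold change 0.35, edgeR adjusted p = 1.10e-05). TMEM38A, of the same family and less abundant, went down, 9.98 ± 0.0871 against 7.21 ± 0.748 CPM (log2 fold change -0.47, edgeR adjusted p = 5.07e-04). In the plot of related genes FXYD1, WNK3 and STK39 are drawn as called too. Their calls were each lost without 1 library, with adjusted p = 0.0949 for FXYD1 without control replicate 2, 0.104 for FXYD1 without sgSEPHS2 replicate 3, 0.0614 for WNK3 without control replicate 1, 0.0775 for WNK3 without sgSEPHS2 replicate 2, 0.119 for STK39 without control replicate 3 and 0.051 for STK39 without sgSEPHS2 replicate 3.

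**Figure D4:**
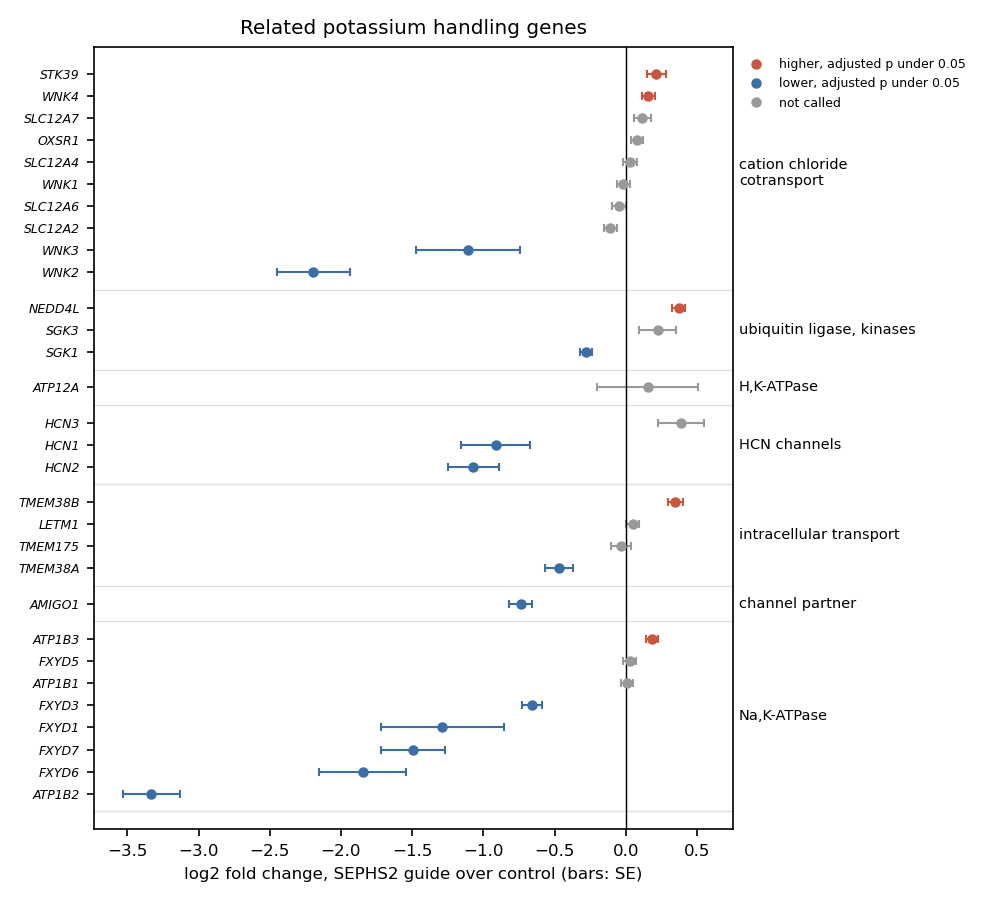
Log2 fold change (x axis, libraries labelled sgSEPHS2 over control, bars are SE) of related genes of potassium transport that were tested and had reads in both groups, 3 libraries per group. ATP1B2 lies farthest to the left at -3.33, and ABCC9, with 0 reads in 1 group, is not drawn.

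Markers of other cell types were read beside these results because KCNJ8 and ABCC9 also mark pericytes and several voltage-gated genes are neuronal. Of 8 pericyte and smooth muscle markers, ABCC9 among them, 4 were lower and 1 higher. Their sum was 539 to 583 CPM in control and 360 to 367 CPM in the libraries labelled sgSEPHS2, most of it CSPG4, which melanoma cells also express. Of 5 neuronal markers 3 were lower and none higher, with sums of 32.3 to 39.6 and 18.2 to 21.6 CPM. STMN2, among the 3, was low, at 0.661 ± 0.225 and 0.0515 ± 0.00634 CPM. Both ABCC9 and STMN2 passed the expression filter through their control reads alone, so their calls add nothing to these counts of lower markers. Over all genes tested 23.4% were called lower and 22% higher. Epithelial markers had 2 higher and 0 lower, dedifferentiated melanoma markers 2 and 2, and fibroblast markers 1 and 1. ABCC9 was the marker of these lists at 0 in every library labelled sgSEPHS2. In a bulk sample fewer cells of a type and less RNA per cell cannot be told apart, and the part of these markers in the channel results was not tested.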

How the data were processed

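RNA from 6 A-375 libraries, 3 labelled sgCTRL and 3 labelled sgSEPHS2 in the sample titles, was sequenced. The deposited values are raw counts of reads by gene symbol, in 1 table. HISAT2 2.2.1 and featureCounts 2.0.6 (Subread), with SAMtools 1.21, FastQC 0.12.1 and the build GRCh38, are named in the submitters' processing notes. The annotation, the strand setting and how multiply mapped reads were treated: not given in the sources used here. Since no label ties replicates to separate cultures, the spread that p-values measure is that of these samples alone and may be technical.

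The members and gene lists were chosen with earlier results of these data known. The fit used edgeR 4.0.16 under R 4.3.3 (TMM factors, default expression filter with the group, two-sided quasi-likelihood test), with Benjamini-Hochberg adjustment over 16910 genes; the filter removed 4721. A call is an adjusted p under 0.05, and every log2 fold change is sgSEPHS2 over sgCTRL. Values are mean ± SD of 3 libraries. Ratios of low counts carry exact 95% conditional binomial intervals, and, since no molecular identifiers are named, these and the limits for 0 reads cover counting error only. Classes follow the symbol stem. Named genes were every called member, the highest member per exon length in each class, members with at least 1 CPM, and members left out by the filter whose groups did not overlap; KCNK2 was added because an alternative called it. Of the related genes, the 8 with the smallest adjusted p and the partners of KCNJ8 and of voltage-gated channels were named. ATP1B1, ATP1B3, FXYD1, FXYD5, TMEM38A, WNK3 and STK39 were added after their values were seen, as were the neighbours of KCNJ8. Some genes that the rule takes are counted but not reported by name here. Exon lengths and overlaps came from GENCODE release 29 and positions and promoters from RefSeq (GRCh38.p14). Alternatives were RLE and upper-quartile factors, DESeq2 1.42.0, limma-voom (limma 3.58.1), no filter, a minimum of 1 CPM in 3 libraries, the replicate number as a block, each library left out, an adjusted p under 0.01, removal of a trend fitted on exon length and GC content (mgcv 1.9.3), other read minimums for members, and leaving out members on chromosomes 13 and 18. The test was checked on simulated counts.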

Additional observations from a re-analysis of the deposited data

How the results depend on the processing

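The 20 calls kept their direction wherever they were called again. All 20 were shared with RLE factors, upper-quartile factors, limma-voom, no filter and the replicate block, 19 with at least 1 CPM in 3 libraries (KCNC1 was left untested), 18 with DESeq2 (KCNJ4 and KCNAB1 lost) and 17 with an adjusted p under 0.01. With the length and GC trend removed 17 were shared; KCNAB2, KCNC1 and KCNAB1 were lost, and KCNG1, KCND1 and KCNK5 (higher) and KCNK2 (lower) were among those gained, so that 9 members were called higher, against 5. The share of all genes called was 48.8% in that setting, against 45.4% in the main fit. There 4 two-pore and 2 accessory members were called, against 2 and 4, and the median log2 fold change of the members was -0.031. The cause was not tested. With at least 300 reads per member, 3 were called higher, 1 two-pore member was called (KCNK6, lower), and the median was -0.40. With at least 1 CPM the median was -0.23, and both medians were over fewer genes. The share of all genes called was 51.1% with at least 1 CPM in 3 libraries and 42.2% with DESeq2. It was 35.7% with no filter and 34.7% at an adjusted p under 0.01.

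With 1 library left out, 4 to 5 members were called higher and 14 to 17 lower, by class 5 to 8 voltage-gated, 2 to 3 inward rectifier, 2 to 3 two-pore, 5 to 5 calcium-activated and 3 to 5 accessory, and 18 to 20 related genes. The share of all genes called in these fits was 36.9% to 43%. The median ranged from -0.19 to -0.089, KCNJ8 from -10.58 to -10.46 and SEPHS2 from 0.14 to 0.17. KCNH2 passed the filter in 4 such fits, through its control reads alone, so its calls there add nothing to its counts. The upper ends of 17 members lower and 8 voltage-gated members each include KCNH2. The fitted log2 fold change of KCNJ8, -10.54 in edgeR, -9.95 in DESeq2 and -8.50 in limma-voom, depends on how each tool treats counts of 0 and is no bound. Members that were not called changed sign with 1 library left out: KCND1 ranged from -0.028 to 0.078, KCNIP3 from -0.17 to 0.048, KCNJ14 from -0.084 to 0.13 and KCNQ1OT1 from -0.061 to 0.13, and KCNIP3 was 0.12 with the length and GC trend removed.

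The shared replicate numbers were not taken to pair the libraries: same-numbered libraries had correlated deviations of 0.081, 0.10 and 0.069, and control replicate 3 correlated best with another number. With the replicate block 5 members were called higher and 15 lower, and 20 related genes against 19 (HCN3, adjusted p = 0.0399). The share of all genes called with the block was 46%. Members with few reads limit what the depth can show: 8 of the 59 could not be tested.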
